A study of Homo sapiens with 8 samples.

Results

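The genes described here are 51 genes of mitosis: components of the centromere, kinetochore and spindle, the kinases, cyclins and phosphatases that drive entry into and exit from mitosis, and proteins of cytokinesis. They were chosen by name, with earlier results of these data known, and all 51 were found once each among the 19158 genes measured. The total RNA, depleted of ribosomal RNA, came from A549, an established line of epithelial cells from a human lung adenocarcinoma, labelled wild type and grown in DMEM with serum. The 4 untreated wells and the 4 wells given the synthetic glucocorticoid dexamethasone (1 µM, 48 h) came from this same line, gave 1 library each and carried the same batch label, 1. Replicates were numbered 1, 3, 4 and 5 in both groups, and values listed for a group below follow that order. Levels were read as FPKM, the fragments of a gene scaled by its length and by the depth of the library. The labels call the values counts, and the unit was inferred from the values. On that reading levels can be compared between genes, within the limit of a dependence on base composition described below. The p-values measure the spread between wells of 1 cell line.

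During mitosis the kinetochore, a protein assembly built on the centromere, attaches chromosomes to spindle microtubules, and the spindle checkpoint holds back anaphase until every kinetochore is attached. Most of these genes are transcribed in a wave in G2 and mitosis, so their summed RNA in a culture is high where cells divide. In resting or arrested cells the DREAM complex represses many of them through a promoter element called CHR (cell cycle genes homology region), and in cycling cells B-MYB and FOXM1 activate them through the same element, often beside CCAAT boxes bound by NF-Y. Glucocorticoids are known to slow proliferation of A549 cells.

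The promoters are shown first because they are what most of the genes share beyond their function. RefSeq promoter windows (GRCh38.p14, 250 bases before to 50 bases after the start) were matched for 42 of the 51 genes, taking the first window listed for each. A CHR, searched as TTTGAA or TTCGAA on both strands, stood in 29 of these 42 windows (69.0%), against 16.6% of 27305 windows of all genes. A CCAAT box, searched as CCAAT on both strands, stood in 32 of 42 (76.2%), against 35.7% of all windows. Both were present in 24 of 42 (57.1%), against 6.58% of all windows, and matches of the 2 motifs can overlap by a base. An E2F site, searched as TTTCCCGC or TTTGGCGC on both strands, stood in 3 of 42 windows (7.14%) and in 2.31% of all windows. The palindromic glucocorticoid response element was matched in 0 of 42 windows and in 0.388% of all windows, which says only that its letters are not in the windows examined. A match is a description of the letters and does not show binding.

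The 150 bases before the RefSeq start are printed 5′ to 3′ for 7 genes, with CHR and CCAAT matches in capitals, to show the shared arrangement and its absence. ESPL1 (chr12:53268149-53268298 on the plus strand), CDC20 (chr1:43358831-43358980 on the plus strand) and KIF4A (chrX:70289954-70290103 on the plus strand) hold both motifs and fell after dexamethasone. MKI67 (chr10:128126424-128126573 on the minus strand) holds both and did not pass the test with all 8 libraries. CDC25A (chr3:48188418-48188567 on the minus strand) and SPC24 (chr19:11155783-11155932 on the minus strand) hold CCAAT boxes and no CHR match in the window. CDC25A is the gene with the smallest p of the 51, and SPC24 is a GC-rich gene that was not called. KIF2C (chr1:44739687-44739836 on the plus strand) has a match to neither and fell.
ESPL1: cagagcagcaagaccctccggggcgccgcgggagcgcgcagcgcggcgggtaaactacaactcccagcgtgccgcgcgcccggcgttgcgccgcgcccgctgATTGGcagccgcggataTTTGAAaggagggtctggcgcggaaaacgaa
CDC20: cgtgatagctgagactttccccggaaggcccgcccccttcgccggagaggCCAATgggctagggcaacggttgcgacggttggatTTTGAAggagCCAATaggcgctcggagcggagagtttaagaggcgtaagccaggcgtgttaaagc
KIF4A: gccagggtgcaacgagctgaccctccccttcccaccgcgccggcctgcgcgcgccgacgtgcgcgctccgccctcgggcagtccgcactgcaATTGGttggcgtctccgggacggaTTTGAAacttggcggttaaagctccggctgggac
MKI67: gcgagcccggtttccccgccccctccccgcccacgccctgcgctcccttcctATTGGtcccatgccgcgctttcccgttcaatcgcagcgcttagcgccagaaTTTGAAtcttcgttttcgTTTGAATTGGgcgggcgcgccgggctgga
CDC25A: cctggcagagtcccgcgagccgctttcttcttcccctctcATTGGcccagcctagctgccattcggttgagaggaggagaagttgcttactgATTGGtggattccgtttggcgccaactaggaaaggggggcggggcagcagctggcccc
SPC24: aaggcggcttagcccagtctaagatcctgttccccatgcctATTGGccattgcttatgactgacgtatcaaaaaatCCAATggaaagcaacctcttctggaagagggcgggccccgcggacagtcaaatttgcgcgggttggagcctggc
KIF2C: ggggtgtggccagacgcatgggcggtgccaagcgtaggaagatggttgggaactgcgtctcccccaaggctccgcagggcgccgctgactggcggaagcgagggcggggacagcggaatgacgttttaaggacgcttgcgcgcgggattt

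The libraries were checked with FKBP5, an established glucocorticoid-induced gene, which rose from 5.8 ± 1.78 to 136 ± 37.6 FPKM (SD, n = 4 each, limma adjusted p = 1.12e-06) with no overlap between groups. The epithelial keratins KRT8 and KRT18 were at 1453 ± 435 and 946 ± 218 FPKM untreated, while EPCAM was at only 0.538 ± 0.264 FPKM (SD, n = 4). Of the 5 epithelial markers, KRT19 fell from 156 ± 30.6 to 54.7 ± 8.28 FPKM and CDH1, the cadherin of epithelial junctions, rose from 6.8 ± 1.51 to 18.2 ± 1.45 FPKM (SD, n = 4 each, log2 fold changes -1.49 and 1.32, limma adjusted p = 0.0014 and 8.15e-05), KRT8 and KRT18 were not called, and EPCAM did not pass the filter. Of 6 markers of other cell types, PTPRC and COL1A2 were at 0 in all 8 libraries, and the sum of the 6 was 1.88 to 2.4 FPKM untreated and 0.308 to 0.470 FPKM after dexamethasone, nearly all COL1A1. Transcripts of the mitochondrial genome made up 1.74% to 6.04% of FPKM untreated and 2.55% to 9.44% after dexamethasone, lowest in replicate 5 of each group, and the part of these shares and markers in the results was not tested. Estimated depth differed little, the deepest library having 1.15 times that of the shallowest.

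Genes of mitosis were lower after 48 h of dexamethasone. Of the 51, 36 fell and 0 rose at an adjusted p under 0.05 in limma fitted over all 12161 genes with at least 0.5 FPKM in at least 4 libraries, a threshold at which 14.3% of all tested genes were called lower and 12.4% higher. All 51 passed the filter, 50 of them had a negative log2 fold change, and the remaining gene, CENPE, had 0.12 and was not called. Computed on log2(FPKM + 1), the median of the log2 fold changes was -0.90 over the 51 genes and 0.01 over all tested genes. A fall of at least 2-fold was called for 23 of the 51 genes, against 3.96% of all tested genes. In 29 of the 51 every treated library lay below every untreated library, against 19.2% of all tested genes. Overlap is judged here and below on FPKM before scaling, whereas the fit used scaled values. The scale by which values were divided was 0.824 for untreated replicate 5 and 1.03 to 1.09 for the other untreated libraries. An overlap at untreated replicate 5 can therefore be absent in the scaled values. In bulk RNA, fewer cells in G2 and mitosis and less RNA of these genes per cell cannot be told apart.

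Summed over the 51 genes, the level was 1579, 1726, 1762 and 1512 FPKM in the untreated libraries and 741, 744, 835 and 781 FPKM in the dexamethasone libraries. These sums were 0.404% to 0.497% of all FPKM untreated and 0.211% to 0.246% after dexamethasone. The groups did not overlap. Among the untreated libraries, replicate 5 held the lowest value before scaling for 32 of the 51 genes and the highest for 10. After scaling it was not low over the genes as a set. The median log2 deviation from the untreated mean was then 0.03 in replicate 5, and -0.06, 0.01 and 0.11 in untreated replicates 1, 3 and 4.

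**Figure D1:**
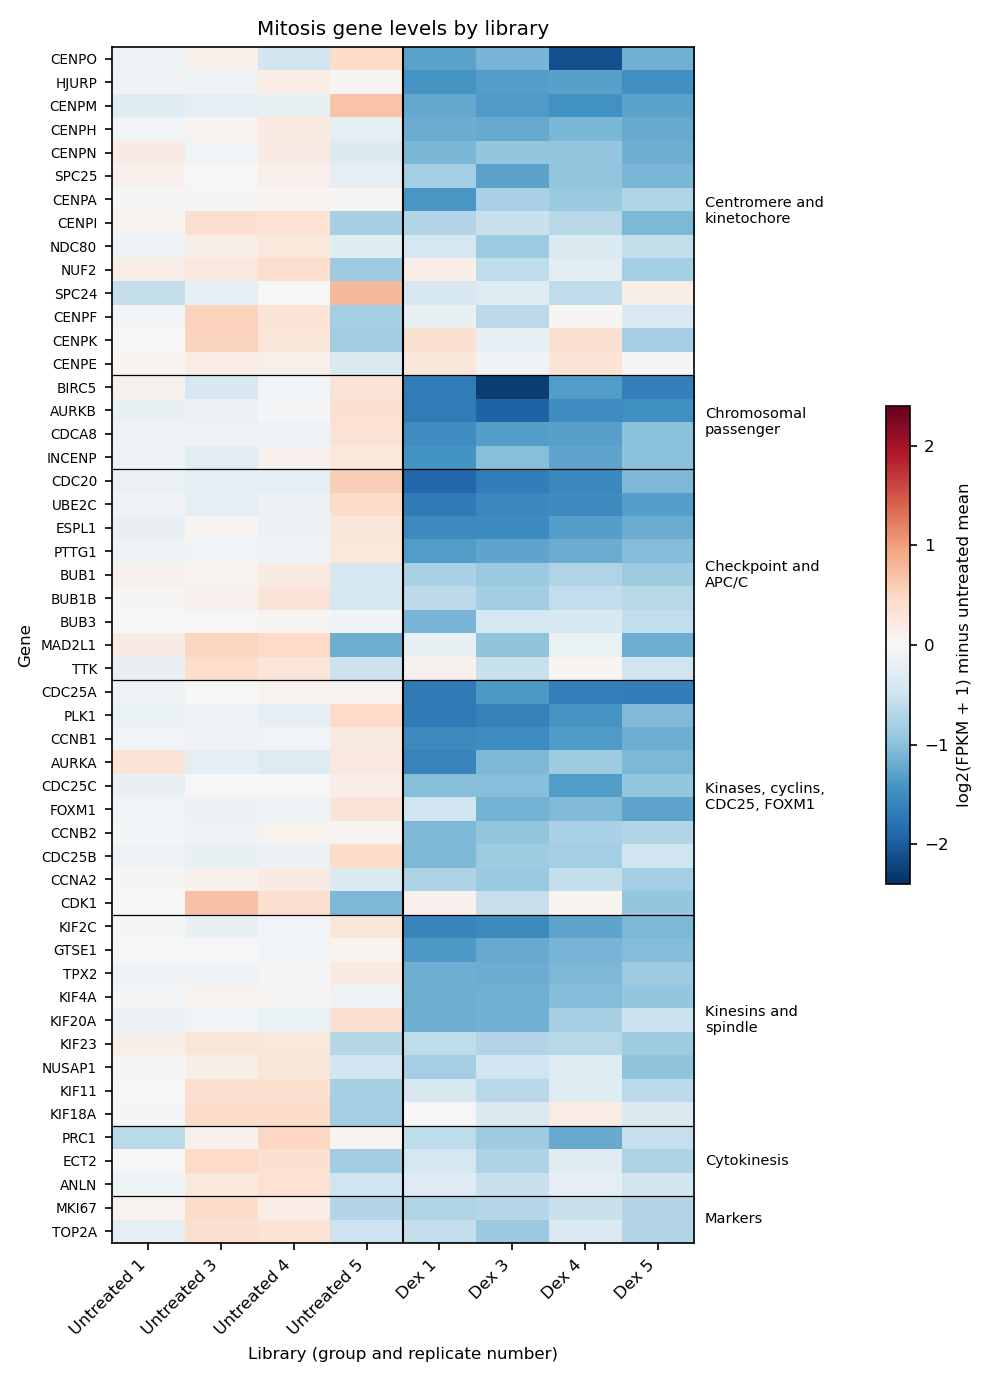
Heat map of the 51 mitosis genes (rows, grouped by role) in the 8 libraries (columns, by group and replicate number); colour is the scaled log2(FPKM + 1) minus the mean of the 4 untreated libraries. The dexamethasone columns are blue for most genes, and untreated replicate 5 is blue for genes such as CDK1 and MAD2L1 and red for genes such as CDC20 and SPC24.

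The genes differ widely in level. Per length, CDC25B was the highest of them in untreated cells, at 175 ± 14.3 FPKM (SD, n = 4), with no overlap with the next gene. UBE2C (106 ± 9.05 FPKM), CCNB1 (101 ± 3.68 FPKM) and CDC20 (91.6 ± 14.9 FPKM) followed, and their library values overlapped. The lowest were TTK (3.24 ± 1.48 FPKM) and CENPE (0.736 ± 0.318 FPKM), and a pseudocount of 1 understates changes at such levels.

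At the centromere and kinetochore, 8 of 14 genes fell, with a median log2 fold change of -0.85 over the 14. HJURP, the chaperone that places the histone variant CENP-A at centromeres (ENSG00000123485, chromosome 2, 233833416 to 233854566, minus strand, GRCh38), was at 39.8, 40.8, 49.9 and 34.4 FPKM untreated and at 15.3, 16.1, 16.5 and 13 FPKM after dexamethasone. Every treated library lay far below every untreated library, and the mean after treatment was 36.9% of the untreated mean (limma log2 fold change -1.38 ± 0.118 SE, adjusted p = 3.08e-05). CENPA itself was at 14.4, 14.9, 15.9 and 12 FPKM untreated and at 4.98, 8.0, 7.45 and 7.69 FPKM after dexamethasone, again without overlap (limma log2 fold change -0.94 ± 0.158 SE, adjusted p = 0.00202). CENPH, a subunit of the inner kinetochore, went from 7.03, 8.3, 9.07 and 4.86 FPKM to 2.63, 2.54, 2.91 and 2.33 FPKM (limma log2 fold change -1.18 ± 0.129 SE, adjusted p = 0.000151). Its untreated replicate 5 was the lowest of the group and still lay above all treated libraries.

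CENPM, another inner subunit, was at 17.9, 19.8, 20.4 and 28.6 FPKM untreated and at 8.89, 7.89, 7.34 and 7.55 FPKM after treatment (limma log2 fold change -1.33 ± 0.209 SE, adjusted p = 0.00137). Here untreated replicate 5 was the highest library. CENPN, which reads the CENP-A nucleosome, and CENPO also fell, with log2 fold changes of -1.04 and -1.42 (limma adjusted p = 0.000747 and 0.00318). CENPK, which binds CENPH in the inner kinetochore, was at 4.81, 7.7, 6.38 and 1.77 FPKM untreated and at 6.45, 3.96, 6.45 and 2.02 FPKM after dexamethasone. The groups overlapped widely, with both libraries numbered 5 far below the rest, and no difference was detected (limma log2 fold change -0.07 ± 0.343 SE, adjusted p = 0.892). CENPI and CENPF, the latter a large coiled-coil protein of the outer kinetochore, did not pass the test (log2 fold changes -0.75 and -0.28, limma adjusted p = 0.0579 and 0.491). CENPI was called without untreated replicate 5, without both libraries numbered 5 (-0.91, limma adjusted p = 0.000576) and with the GC trend removed (-1.02, limma adjusted p = 0.000297). The motor CENPE, a kinesin that carries chromosomes to the spindle equator, was at 0.771, 0.987, 0.908 and 0.278 FPKM untreated and at 1.08, 0.613, 1.16 and 0.605 FPKM after dexamethasone, with overlapping groups (limma log2 fold change 0.12 ± 0.143 SE, adjusted p = 0.552).

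The 4 subunits of the NDC80 complex, which grips the microtubule, did not give the same result. SPC25 fell (limma log2 fold change -1.04 ± 0.142 SE, adjusted p = 0.000582). NDC80 was at 4.17, 5.37, 5.86 and 2.84 FPKM untreated and at 3.17, 1.97, 3.33 and 2.44 FPKM after dexamethasone. It passed the test (limma log2 fold change -0.56 ± 0.165 SE, adjusted p = 0.0335), and its groups overlapped before scaling at untreated replicate 5. Its call was lost in 6 of the 8 fits that left out a library. NUF2 did not pass (limma log2 fold change -0.38 ± 0.30 SE, adjusted p = 0.371). SPC24 (ENSG00000161888, chromosome 19, 11131520 to 11155808, minus strand) was at 8.92, 12.3, 14.5 and 19.6 FPKM untreated and at 10.4, 10.8, 8.62 and 13.9 FPKM after dexamethasone. Its lowest untreated library was replicate 1 and its highest replicate 5, the treated values lay within that range except for dexamethasone replicate 4, and no difference was detected (limma log2 fold change -0.28 ± 0.28 SE, adjusted p = 0.476).

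All 4 genes of the chromosomal passenger complex, which corrects faulty attachments and directs cytokinesis, fell at least 2-fold, with a median log2 fold change of -1.46. AURKB, its kinase (ENSG00000178999, chromosome 17, 8204733 to 8210600, minus strand), was at 45.8, 49.2, 52.1 and 53.6 FPKM untreated and at 15.5, 12.5, 17.7 and 16.1 FPKM after dexamethasone, or 30.8% of the untreated mean (limma log2 fold change -1.65 ± 0.165 SE, adjusted p = 9.59e-05). BIRC5, which encodes survivin (ENSG00000089685, chromosome 17, 78214186 to 78225636, plus strand), was at 38.6, 28.5, 35.9 and 36.2 FPKM untreated and at 10.4, 6.43, 13.4 and 9.67 FPKM treated (limma log2 fold change -1.74 ± 0.221 SE, adjusted p = 0.000396). This was the most negative log2 fold change of the 51 genes. CDCA8, which encodes borealin, was at 23.6, 24.4, 24.2 and 26.1 FPKM and then at 8.47, 9.34, 9.61 and 11.1 FPKM (limma log2 fold change -1.27 ± 0.16 SE, adjusted p = 0.000367). INCENP, the scaffold that binds AURKB, was at 32.1, 30.8, 39.5 and 33.7 FPKM and then at 12.3, 16.4, 13.8 and 15.3 FPKM (limma log2 fold change -1.18 ± 0.158 SE, adjusted p = 0.000527). In none of these 4 genes did the groups overlap, and untreated replicate 5 was not the lowest library of its group for any of them.

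Of 9 genes of the spindle checkpoint and the anaphase-promoting complex, 7 fell (median log2 fold change of the 9, -0.82). ESPL1, the separase that cuts cohesin at anaphase, was at 14.6, 18.2, 15.8 and 16.2 FPKM untreated and at 5.15, 5.07, 6.05 and 6.07 FPKM after dexamethasone (limma log2 fold change -1.39 ± 0.144 SE, adjusted p = 0.000111). PTTG1, its inhibitor securin, was at 68.2, 73.3, 72.7 and 69.4 FPKM and then at 28.5, 29.4, 31.2 and 31.7 FPKM (limma log2 fold change -1.21 ± 0.133 SE, adjusted p = 0.000153). Spread between wells was small for PTTG1, with SDs of 2.46 and 1.5 FPKM. UBE2C and CDC20, which feed ubiquitin to and activate the anaphase-promoting complex, fell to 34.3% and 34% of their untreated means (log2 fold changes -1.52 and -1.54, limma adjusted p = 0.000192 and 0.00114).

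Among the checkpoint proteins proper, BUB1, BUB3 and BUB1B fell and TTK and MAD2L1 were not called. BUB1, a kinetochore kinase, was at 24, 24.9, 27.4 and 13.6 FPKM untreated and at 12.7, 11.4, 13.1 and 10.7 FPKM after dexamethasone, without overlap (limma log2 fold change -0.82 ± 0.146 SE, adjusted p = 0.00282). BUB3, which carries BUB1 and BUB1B to kinetochores, was at 77.8, 82.1, 84.4 and 57.9 FPKM and then at 35.1, 56.4, 58.7 and 45.9 FPKM (limma log2 fold change -0.63 ± 0.172 SE, adjusted p = 0.0236). Before scaling, dexamethasone replicate 4 of BUB3 lay above untreated replicate 5, so the groups overlapped. The BUB3 call was lost without untreated replicate 1, 3 or 4. BUB1B, the checkpoint protein BubR1, fell by less than 2-fold (limma log2 fold change -0.68 ± 0.165 SE, adjusted p = 0.0139). Its groups also overlapped before scaling, at untreated replicate 5. TTK, the kinase MPS1 that starts the checkpoint signal, was at 2.59, 4.69, 4.22 and 1.47 FPKM and then at 3.42, 1.78, 3.22 and 1.74 FPKM, with overlapping groups (limma log2 fold change -0.21 ± 0.239 SE, adjusted p = 0.531). MAD2L1, the inhibitor MAD2, did not pass (limma log2 fold change -0.62 ± 0.394 SE, adjusted p = 0.271), and its untreated replicate 5, at 1.66 FPKM, was below all dexamethasone libraries.

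Of 10 genes for mitotic kinases, cyclins, CDC25 phosphatases and FOXM1, 9 fell, with a median log2 fold change of -1.03. CDC25A, a phosphatase that activates cyclin-dependent kinases (ENSG00000164045, chromosome 3, 48157146 to 48188402, minus strand), was at 8.07, 9.25, 9.92 and 7.46 FPKM untreated and at 2.06, 2.73, 2.14 and 1.91 FPKM after dexamethasone. Treated cells held 25.5% of the untreated mean, and CDC25A had the smallest p of the 51 genes (limma log2 fold change -1.59 ± 0.121 SE, adjusted p = 1.56e-05). CDC25B was at 164, 168, 171 and 196 FPKM and then at 84.7, 97.7, 102 and 116 FPKM (limma log2 fold change -0.81 ± 0.19 SE, adjusted p = 0.0121). CDC25C was at 7.96, 9.69, 9.58 and 8.23 FPKM and then at 4.01, 3.92, 2.98 and 3.88 FPKM (limma log2 fold change -1.07 ± 0.135 SE, adjusted p = 0.000347). For each of the 3 phosphatases all treated libraries lay below all untreated libraries.

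CCNB1, the cyclin that activates CDK1 for mitotic entry (ENSG00000134057, chromosome 5, 69167010 to 69178245, plus strand), was at 99.1, 104, 104 and 97 FPKM untreated and at 35.7, 35.8, 40.1 and 41.2 FPKM after dexamethasone (limma log2 fold change -1.39 ± 0.136 SE, adjusted p = 7.4e-05). The untreated libraries lay between 97 and 104 FPKM, far above all treated libraries. Its kinase partner CDK1 (ENSG00000170312, chromosome 10, 60778331 to 60794852, plus strand) was at 13.3, 23.8, 19 and 4.66 FPKM untreated and at 14.7, 8.69, 14 and 5.99 FPKM after dexamethasone. Untreated replicate 5 was the lowest of all 8 libraries, the groups overlapped, and no difference was detected (limma log2 fold change -0.33 ± 0.381 SE, adjusted p = 0.545). CCNB2 and CCNA2 also fell, with log2 fold changes of -0.88 and -0.75 (limma adjusted p = 0.000773 and 0.00417). The CCNA2 groups overlapped before scaling, with dexamethasone replicate 4 (13.4 FPKM) above untreated replicate 5 (12.9 FPKM).

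PLK1, a kinase of mitotic entry and spindle assembly, was at 69.3, 75.3, 71.4 and 86.4 FPKM untreated and at 23.3, 24.3, 28.5 and 33.1 FPKM after dexamethasone, or 36.1% of the untreated mean (limma log2 fold change -1.45 ± 0.198 SE, adjusted p = 0.000604). AURKA, the kinase of spindle poles, was at 63, 44.8, 42.1 and 47.6 FPKM and then at 16.1, 22.8, 27.3 and 20.9 FPKM (limma log2 fold change -1.15 ± 0.206 SE, adjusted p = 0.00285). The groups did not overlap for either kinase. FOXM1, the transcription factor that activates many genes of this wave, was at 24.7, 24.7, 25.3 and 25.8 FPKM untreated and at 18.3, 11, 11.9 and 9.21 FPKM treated (limma log2 fold change -0.98 ± 0.187 SE, adjusted p = 0.00407). Its untreated wells were nearly equal, and dexamethasone replicate 1 was higher than the other treated wells.

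Among 9 kinesins and spindle proteins, 7 fell (median log2 fold change of the 9, -0.90). GTSE1, a microtubule-binding protein of G2 and mitosis, was at 19.9, 21, 20.2 and 17.2 FPKM untreated and at 7.14, 7.96, 8.67 and 8.36 FPKM after dexamethasone (limma log2 fold change -1.19 ± 0.118 SE, adjusted p = 7.96e-05). KIF4A, a motor that acts on chromosome arms and the central spindle, was at 18.5, 21.2, 20.5 and 14.4 FPKM and then at 7.89, 7.82, 8.71 and 8.56 FPKM (limma log2 fold change -1.08 ± 0.113 SE, adjusted p = 0.000115). KIF2C, which takes microtubules apart at centromeres, TPX2, the activator of AURKA, and KIF20A, a motor of the central spindle, also fell without overlap, to 36.2%, 46.9% and 52.1% of their untreated means (limma adjusted p = 0.000229, 0.000325 and 0.00595). KIF23 and NUSAP1 passed the test with groups that overlapped at untreated replicate 5 (log2 fold changes -0.71 and -0.64, limma adjusted p = 0.0338 and 0.0431). Of the 8 fits that left out a library, the call was kept in 1 for KIF23, without untreated replicate 5, and in 2 for NUSAP1, without untreated replicate 5 or dexamethasone replicate 4. KIF11, the motor that pushes spindle poles apart, did not pass (limma log2 fold change -0.49 ± 0.255 SE, adjusted p = 0.181). KIF18A, which limits chromosome movement at the plate, was at 3.56, 5.68, 5.66 and 1.34 FPKM and then at 3.74, 2.68, 4.33 and 2.44 FPKM, with overlapping groups (limma log2 fold change -0.13 ± 0.275 SE, adjusted p = 0.749).

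Of the 3 cytokinesis genes, 1 fell with all libraries and 3 fell without untreated replicate 5. PRC1, which bundles microtubules of the central spindle, was at 24.3, 43.7, 57.7 and 32.2 FPKM untreated and at 25.3, 20.6, 16.1 and 23.3 FPKM after dexamethasone (limma log2 fold change -0.81 ± 0.245 SE, adjusted p = 0.0365). Untreated replicate 1 lay below dexamethasone replicate 1, and the call was lost without untreated replicate 3 or 4, without dexamethasone replicate 1, 3 or 4, and without both libraries numbered 5 (limma adjusted p = 0.0507). ANLN, the contractile-ring scaffold anillin, was at 16.1, 22, 23.5 and 9.71 FPKM and then at 13.9, 11.5, 14.6 and 11.4 FPKM (limma log2 fold change -0.38 ± 0.187 SE, adjusted p = 0.162). ECT2, the exchange factor that activates RhoA at the furrow, was at 22.4, 33.4, 30.5 and 9.73 FPKM and then at 16.5, 12.9, 18.2 and 11.7 FPKM (limma log2 fold change -0.55 ± 0.271 SE, adjusted p = 0.162). For both, the treated libraries lay, before scaling, below untreated replicates 1, 3 and 4 and above untreated replicate 5. Without both libraries numbered 5, ANLN and ECT2 were called, with log2 fold changes of -0.53 and -0.77 (limma adjusted p = 0.0169 and 0.00636).

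Neither of the proliferation markers passed the test. MKI67, which coats mitotic chromosomes, was at 27.2, 36.9, 30.6 and 12.2 FPKM untreated and at 15.2, 15.2, 17.2 and 13.8 FPKM after dexamethasone, just outside the threshold (limma log2 fold change -0.66 ± 0.222 SE, adjusted p = 0.053). TOP2A, the topoisomerase that untangles sister chromatids, was at 53.1, 86.3, 82.6 and 35 FPKM and then at 42.1, 32.5, 48.5 and 34.3 FPKM (limma log2 fold change -0.63 ± 0.221 SE, adjusted p = 0.0627). Without untreated replicate 5 both were called, and without both libraries numbered 5 the log2 fold changes were -0.89 and -0.78 (limma adjusted p = 0.000551 and 0.0171).

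**Figure D2:**
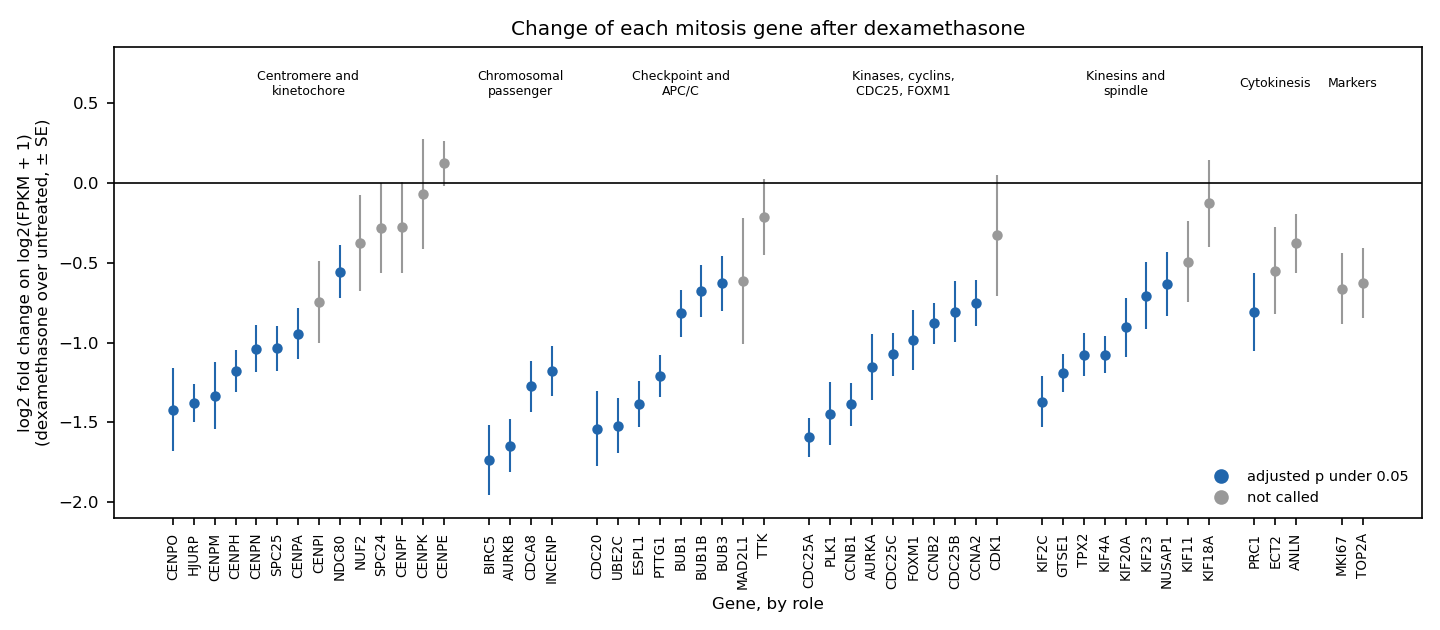
Log2 fold change (dexamethasone over untreated, on log2(FPKM + 1), vertical axis) of each of the 51 genes by role (horizontal axis), with bars of 1 SE from limma; blue points have an adjusted p under 0.05 and grey points do not. The 36 blue points all lie below 0, and the 15 grey points include CENPE, above 0, and CENPK, SPC24, TTK, CDK1 and KIF18A, near it.

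The size of the change varied with the base composition of the transcripts. Across the 51 genes, the log2 fold change was more negative at higher GC content of the canonical transcript (Spearman rho -0.76), a description over genes that share the same 8 libraries. The same relation over 12130 tested genes had a rho of -0.45. With the genes split at a GC content of 42%, chosen after the values were seen, 6 of 19 genes below it fell and 30 of 32 at or above it fell. Of all tested genes, 3.13% were called lower below 42% and 18% at or above it. The median log2 fold change was -0.55 in the 19 AT-rich genes and -1.17 in the 32 others, where all tested genes had medians of 0.32 and -0.10. Relative to genes of like composition, both classes had lower medians. Of the 15 genes that were not called, 13 had a GC content under 42%, the exceptions being MKI67 (48.3%) and SPC24 (53.3%).

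After each library's dependence on GC content was removed, 48 of the 51 genes fell and 0 rose, where 18.8% of all tested genes were called lower and 18.4% higher. The median log2 fold change was then -0.97, and all 36 genes called before were among the 48. Among the 51 genes the log2 fold change was still more negative at higher GC content (Spearman rho -0.44). Genes that gained a call included CDK1 (log2 fold change -0.73, limma adjusted p = 0.0166), TOP2A (-0.94, limma adjusted p = 0.000665) and MAD2L1 (-0.94, limma adjusted p = 0.0118). The genes not called there were SPC24 (-0.12, limma adjusted p = 0.686), CENPF (-0.53, limma adjusted p = 0.0515) and CENPE, whose sign turned (-0.29, limma adjusted p = 0.0695). CENPK, at -0.07 with the trend kept, was then at -0.53 (limma adjusted p = 0.0175). Removing the trend also removes any change by treatment that itself follows GC content, so the size of a single gene's change depends on this choice. With and without the trend, the log2 fold changes were -1.65 and -1.45 for AURKB and -0.81 and -0.57 for CDC25B.

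**Figure D3:**
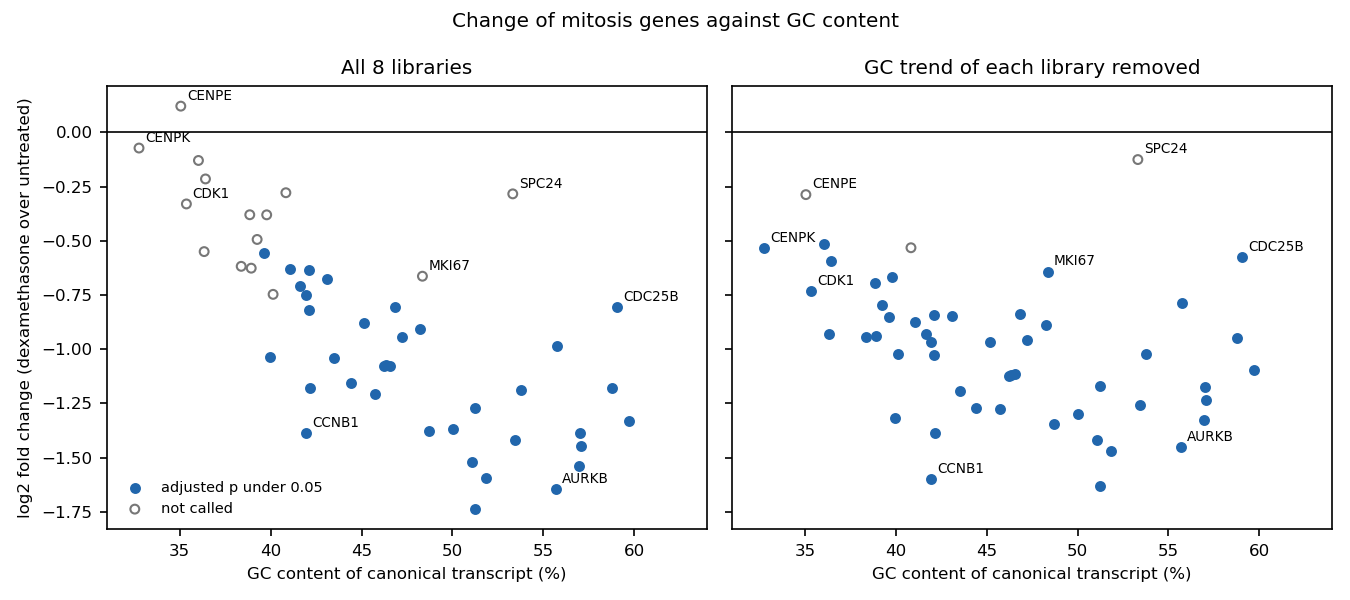
Log2 fold change of the 51 genes (vertical axes) against the GC content of the canonical transcript in percent (horizontal axes). The left panel is from scaled values, and the right panel from scaled values with each library's GC trend removed. Filled points have a limma adjusted p under 0.05. On the left 36 points are filled and the open ones crowd at low GC content, and on the right 48 are filled.

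A relation with GC content was also present within each group, in the library numbered 5. In untreated replicate 5, compared before scaling with the mean of the other untreated libraries, all 19 AT-rich genes were lower, with a median log2 difference of -1.25. The 32 others had a median of -0.05. MAD2L1 was lowest, at -1.85, and SPC24 highest, at 0.67. Over the 51 genes this difference rose with GC content (Spearman rho 0.86) and was weakly lower for longer transcripts (rho -0.39). MKI67, whose canonical transcript is the longest of the 51 at 12716 bases, was at -1.30 despite a GC content of 48.3%. In dexamethasone replicate 5 the relation had the same sign (rho 0.73), with medians of -0.33 in the AT-rich genes and 0.08 in the others, and FOXM1, at -0.53, was low among the GC-rich genes. For 27 genes both libraries numbered 5 were below the mean of the rest of their group. All these differences are before scaling. The scale was 0.824 in untreated replicate 5, against 1.03 to 1.09 in the other untreated libraries. It was 0.928 in dexamethasone replicate 5, against 1.02 to 1.04 in the other treated libraries. Differences near 0 would therefore be positive after scaling.

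Without untreated replicate 5 alone, 44 of the 51 genes fell, against 16.4% of all tested genes called lower and 15% called higher. The 8 gained were ANLN, CENPI, ECT2, KIF11, MAD2L1, MKI67, NUF2 and TOP2A. Without both libraries numbered 5, 42 of the 51 genes fell and 0 rose, against 22.9% of all tested genes called lower and 22.2% called higher, and the median log2 fold change was -0.92. Of the 36 genes called with all libraries, 35 were among the 42, PRC1 being the exception. The relation with GC content was also present without them (Spearman rho -0.69 over the 51 genes). With these libraries left out and the GC trend removed as well, an alternative added after the data were seen, 50 of 51 fell, against 21.5% of all tested genes, and the remaining gene was SPC24 (log2 fold change -0.04, limma adjusted p = 0.867). The part that RNA quality or library preparation has in the GC pattern was not tested.

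**Figure D4:**
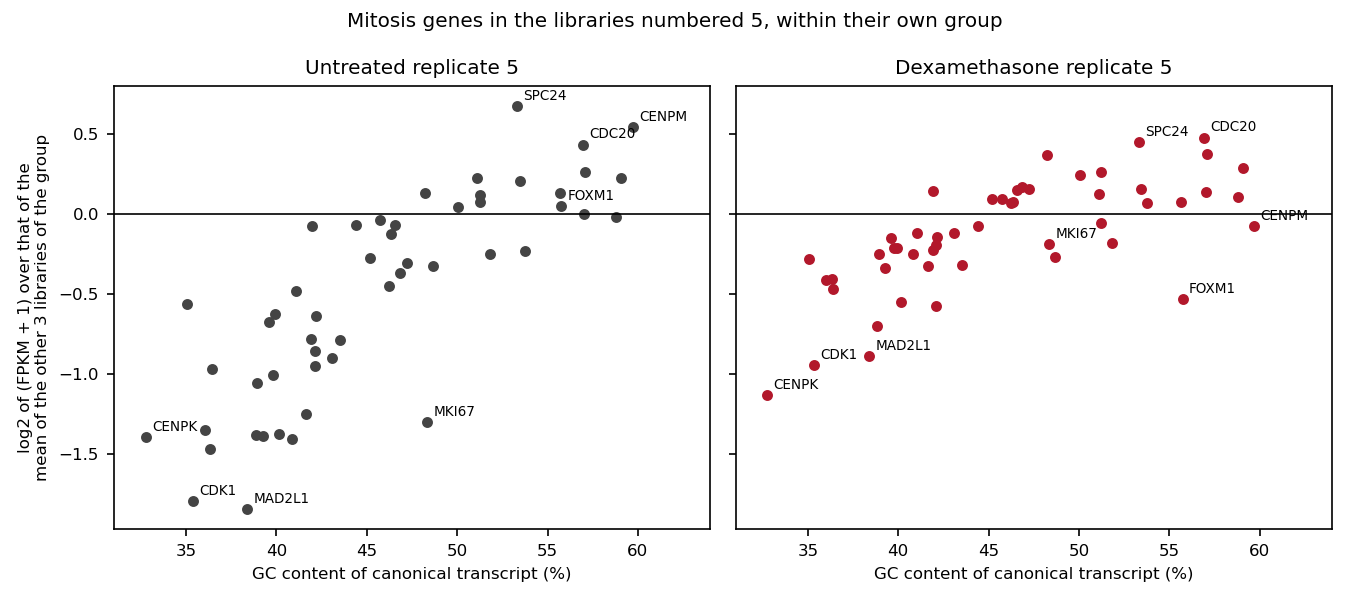
Log2 of FPKM + 1, before scaling, in replicate 5 over that of the mean of the other 3 libraries of its group (vertical axes) for the 51 genes, against GC content of the canonical transcript in percent (horizontal axes), for untreated cells (left) and dexamethasone (right). Points rise from left to right in both panels, from below -1.5 for CDK1 and MAD2L1 to above 0.5 for SPC24 and CENPM in the untreated panel.

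Whether partner genes changed unequally was tested on 5 pairs, with an exact permutation test of the log2 ratio of (FPKM + 1) over libraries, two-sided and adjusted over the 5 pairs. With 4 against 4 libraries the smallest possible p is 0.0286. For CENPM over CENPE the log2 ratio was 3.39, 3.33, 3.44 and 4.74 untreated and 2.23, 2.45, 1.94 and 2.47 after dexamethasone. All treated libraries lay lower, by a mean of -1.45 (exact permutation p = 0.0286, adjusted p = 0.143), so the difference in change did not pass after adjustment. For AURKB over AURKA the mean ratio changed by -0.49 (exact permutation p = 0.0857, adjusted p = 0.214), with overlapping groups. For SPC24 over NDC80 the change was 0.27 (exact permutation p = 0.543, adjusted p = 0.543), and the untreated ratio spread from 0.94 to 2.47, with replicate 5 highest. For CDC25B over CDC25C it was 0.27 (exact permutation p = 0.2, adjusted p = 0.333). For BUB1 over BUB3 it was -0.19 (exact permutation p = 0.429, adjusted p = 0.536). None of the 5 pairs passed after adjustment, and the design fixes this in part: a single pair at the smallest possible p adjusts to 0.143, and at least 3 of the 5 would have to reach it for any to pass. The result does not show that the partners changed alike. With the GC trend removed the differences were -0.81 for CENPM over CENPE, -0.18 for AURKB over AURKA, 0.72 for SPC24 over NDC80, 0.55 for CDC25B over CDC25C and -0.15 for BUB1 over BUB3, with adjusted exact permutation p from 0.0714 to 0.629.

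Every promoter class held genes that fell and genes that were not called. Of 24 genes with both CHR and CCAAT in the window, 16 fell (median log2 fold change -0.85). Of 8 with a CCAAT match and no CHR match 6 fell (median -1.06). Of 5 with CHR and no CCAAT match 3 fell (median -0.56), and of 5 with neither 3 fell (median -0.81). A class without CHR lacks the letters TTTGAA and TTCGAA in the first window listed. Other forms of the element and other windows were not searched. The first window listed can lie inside the span given for the gene, as for AURKB and CENPI. For CENPI the 150 bases before the RefSeq start were at 101100908 to 101101057, in a gene from 101098218 to 101163681. The class of such a gene describes that window only. These are counts, and no test of the difference between classes was run. ANLN, NDC80 and NUF2, in the class with CHR alone, are AT-rich (39.8%, 39.6% and 38.8% GC).

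A list of 80 other genes of mitosis, all of which passed the filter, moved in the same direction, with a median log2 fold change of -0.53. This list too was chosen with earlier results of these data known. Of these, 36 fell and 0 rose, against 14.3% of all tested genes called lower and 12.4% higher. The 4 with the smallest p were NCAPH, a condensin subunit, KIF18B, a kinesin of astral microtubules, FAM83D, a spindle protein, and TRIP13, an ATPase that resets checkpoint proteins. NCAPH went from 36.6 ± 3.9 to 11.7 ± 1.22 FPKM (SD, n = 4 each, log2 fold change -1.57, limma adjusted p = 1.73e-05). KIF18B went from 31.6 ± 0.46 to 9.5 ± 0.711 FPKM (SD, n = 4 each, log2 fold change -1.64, limma adjusted p = 2.35e-05). FAM83D and TRIP13 had log2 fold changes of -1.34 and -1.15 (limma adjusted p = 3.57e-05 and 3.92e-05). Without both libraries numbered 5, 56 fell, against 22.9% of all tested genes called lower and 22.2% called higher. Genes called higher in that fit included NUMA1, a spindle-pole protein (log2 fold change 0.56, limma adjusted p = 0.0225), and ANAPC4 (0.34, limma adjusted p = 0.0344). NUMA1 and ANAPC4 were named after their values were seen. With the GC trend removed 64 of the 80 fell and 1 rose, against 18.8% called lower and 18.4% higher. The gene that rose there was NUMA1 (0.59, limma adjusted p = 0.0119), which was not called with all libraries and the trend kept (limma adjusted p = 0.299). RefSeq windows were matched for 67 of the 80, and a CHR stood in 40 of these (59.7%).

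Among 18 genes of the RB, E2F and DREAM system, which switches these promoters off and on, 6 fell and 2 rose. Of all tested genes 14.3% were called lower and 12.4% higher, so the 2 that rose do not exceed the share over all genes. In all 18 the median log2 fold change was -0.25. MYBL2, the B-MYB that activates mitotic promoters, went from 57.1, 56.6, 56.6 and 80.4 FPKM to 16.9, 16.5, 18.9 and 24.2 FPKM (limma log2 fold change -1.66 ± 0.234 SE, adjusted p = 0.000713). E2F1 and E2F2, activators of S-phase genes, went from 26.4 ± 3.19 to 7.66 ± 0.611 FPKM and from 6.16 ± 0.503 to 1.58 ± 0.279 FPKM (SD, n = 4 each, log2 fold changes -1.66 and -1.48, limma adjusted p = 0.000149 and 8.26e-05). E2F8, a repressor made late in S phase, also fell (limma log2 fold change -1.06 ± 0.171 SE, adjusted p = 0.00162). The genes that rose were TFDP2, an E2F partner, from 7.14, 6.34, 7.84 and 3.95 FPKM to 9.34, 11.7, 14.4 and 9.7 FPKM (limma log2 fold change 0.76 ± 0.167 SE, adjusted p = 0.00836), and RBL2, the p130 pocket protein of the DREAM complex, from 8.4, 10.3, 10.2 and 4.89 FPKM to 12.5, 13.1, 12.5 and 9.42 FPKM (limma log2 fold change 0.48 ± 0.159 SE, adjusted p = 0.0488). RBL2 passed narrowly, and its groups overlapped before scaling. The MuvB subunits LIN9, LIN37, LIN52, LIN54 and RBBP4 were not called, with log2 fold changes of -0.29 to 0.10 and limma adjusted p of 0.231 to 0.917. With the GC trend removed, 11 of the 18 genes fell and 2 rose, against 18.8% of all tested genes called lower and 18.4% higher. Of these 5 subunits, 4 were among those that fell: LIN9 (-0.70, limma adjusted p = 0.000185), RBBP4 (-0.35, limma adjusted p = 0.00895), LIN54 (-0.28, limma adjusted p = 0.00995) and LIN52 (-0.41, limma adjusted p = 0.0178).

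Some values are uncertain because the authors' treatment of overlapping genes and of strand is not stated. CENPN, CENPA, BUB1B, PRC1, CCNB2 and NUSAP1 overlap another gene on the same strand in GENCODE v44. A gene on the opposite strand overlaps 18 of the 51, among them HJURP, SPC24, PLK1, FOXM1 and KIF20A.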

How the data were processed

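The deposited values were read as FPKM: the labels call them counts, but they are not whole numbers, and the unit was inferred from the values. Per the series' design text and the submitters' processing notes, the authors used FastQC 0.11.9, cutadapt 3.4 and STAR 2.7.9a on GRCh38. They also used featureCounts of Subread 2.0.3 and DESeq2 1.32.0. How the FPKM were made, which annotation was used and whether strand was used are not given in the sources used here. Steps between low values gave the relative depth of libraries, but only 42.9% to 51.1% of them came within 0.1 of whole reads (20% by chance), so read counts could not be restored, tests for counts were left out and no absolute depth is given. Scaling used trimmed means of log ratios between libraries (0.3 of M and 0.05 of A values trimmed on each side), genes with at least 0.5 FPKM in at least 4 libraries (3 where a library was left out) were kept, and log2(FPKM + 1) was fitted with limma 3.58.1 in R 4.3.3 (trend and robust, group as the only term, two-sided, Benjamini-Hochberg over all genes tested, called under 0.05). Fold changes on this scale understate changes of low genes. FPKM are printed as deposited, before scaling. GC content and overlaps are from GENCODE v44, and the trend on GC was removed with lowess (span 0.3). The fit was tested on simulated data with independent noise in each gene, without a GC trend shared by the genes of a library. Of the pairs of libraries, 0 were identical. Alternatives were another pseudocount, filter, scaling and variance model, removal of the GC trend, a replicate block and leaving out libraries. The genes and lists were chosen with earlier results of these data known. Library values are given for the 2 genes with the smallest p and the gene with the largest p in each role, all genes of roles with 4 or fewer, the 10 genes of the 5 pairs, and CENPA, PLK1, CDK1, CCNB1 and FOXM1; of the other lists the 4 genes with the smallest p and those called higher are named. CENPE, at low FPKM, was filtered out at 1 FPKM.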

Additional observations from a re-analysis of the deposited data

Results flagged for a closer look

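In 102 groups of 4 libraries (51 genes in 2 treatment groups), a library stood apart from the other 3 of its group in 2 cases, by the ratio of its gap to the range of the group (Dixon's 95% limit), where chance gives about 1 in 20 groups. CDC20 in untreated replicate 5 was at 114 FPKM, while the other untreated libraries were at 84 to 84.4 FPKM. CDC25C in dexamethasone replicate 4 was at 2.98 FPKM, while the other dexamethasone libraries were at 3.88 to 4.01 FPKM.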

How the results depend on the processing

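Across 20 fits, the number of the 51 genes called lower ranged from 31 to 50, 0 were called higher in any fit, and the median log2 fold change ranged from -1.07 to -0.83. In every fit 30 genes were called lower, and 48 had a negative log2 fold change in every fit that tested them. Leaving out a library gave 31 to 44 genes called lower, and 2317 to 3846 genes called in all, against 3251 in the fit of all libraries. The count of all called genes moved further to 5514 without both libraries numbered 5, to 5221 with the GC trend also removed, to 5747 with a replicate block and to 5319 with the replicate block and the GC trend removed. The block called 40 of the 51 genes lower, against 23.2% of all tested genes, and no call was lost under it. With the GC trend also removed it called 49 lower, against 21.8% of all tested genes. Replicate numbers are not treated as pairing: deviations from group means correlated between same-numbered libraries at 0.29, 0.07, 0.31 and 0.71 for numbers 1, 3, 4 and 5, and not every library correlated best with its own number. The sign of CENPE turned to -0.29 with the GC trend removed, with or without the block, and to -0.28 without both libraries numbered 5 as well. CENPK turned to 0.10, 0.03 and 0.18 without untreated replicate 3, untreated replicate 4 and dexamethasone replicate 5, in a range of -0.35 to 0.18 over the fits without a library. KIF18A turned to 0.015 and 0.016 without untreated replicate 3 and 4, in a range of -0.40 to 0.016. The cause of these changes was not tested. Calls of BUB3, KIF23, NDC80, NUSAP1 or PRC1 were lost in fits without a library, of KIF23, NUSAP1 and PRC1 without the filter, of NUSAP1 with upper-quartile scaling, and of BUB1B, KIF23, NDC80 and NUSAP1 without scaling. Leaving out a library, the change of the log2 ratio ranged from 0.12 to 0.63 for SPC24 over NDC80, from -0.65 to -0.37 for AURKB over AURKA, from -1.59 to -1.12 for CENPM over CENPE, from 0.18 to 0.38 for CDC25B over CDC25C and from -0.36 to -0.09 for BUB1 over BUB3. In the paired form of these ratios the smallest possible p is 0.125.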
